A study of Mus musculus with 12 samples.

Results

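Genes of Schwann cells and peripheral nerve, *Sox10*, *Foxd3*, *Erbb3*, *Ngfr*, *Cdh19*, *S100b*, *Pmp22* and *Mbp*, were followed in newborn mouse calvaria. These 8 members were chosen by name among the 23715 genes of the files. The value of a gene in a mouse is the sum of the FPKM (a read density, in fragments for each kilobase of RNA relative to library depth) of its RefSeq transcripts. RNA-seq libraries of 12 individual C57BL/6 mice fall into 4 groups of 3. P-KO mice carry the genotype label Med23-/- with deletion in mesenchymal stem cells, and P-Ctrl mice are their control littermates, labelled WT. R-Het mice are Runx2+/-, and R-WT mice are their wild-type littermates. *Med23* exons 5 to 7 are floxed and removed by Prx1-Cre, which acts mainly in limb and craniofacial mesenchyme. In another assay of the study the control mice were Med23 fl/fl, whereas the label of P-Ctrl gives WT. The labels give whole calvaria of newborns, and the study's methods give parietal bone at P2. No group received a treatment.

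Schwann cells arise from the neural crest and wrap the axons that run into bone and its periosteum. SOX10 and FOXD3 are transcription factors of the crest lineage, neuregulin on the axon signals to Schwann cells through ERBB3, and myelinating Schwann cells build compact myelin from PMP22, MBP and other proteins under the transcription factor EGR2. Several of these genes are also used elsewhere: *S100b* in cartilage, *Pmp22* in many connective tissue cells and *Ngfr* in nerve sheath and other mesenchymal cells. In whole tissue, fewer cells of a type and less RNA per cell cannot be told apart.

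The files hold roughly 7850000 to 11600000 fragments per mouse, with 9110000 to 11600000 in P-Ctrl and 8000000 to 8940000 in P-KO. These depths were estimated from the values that 1 fragment is worth. *Xist* was above 1 FPKM in 2 P-Ctrl mice and 1 R-WT mouse and in 0 mutant mice, so by this gene both mutant groups were male and both control groups mixed. The deleted genes did not fall at the summed mRNA level: *Med23* was at 4.54 to 5.99 FPKM in P-Ctrl and 4.89 to 5.74 FPKM in P-KO, and *Runx2* was at 27.3 to 37.7 FPKM in R-WT and 30.4 to 35.7 FPKM in R-Het. These sums cover whole transcripts and all cells of the tissue, and values per exon or cell type were not examined. They are therefore a weak check of the labels, and why neither gene fell was not tested. The content of skeletal muscle, taken as the mean log2(FPKM + 1) of 10 muscle genes, varied between mice: 6.05, 1.63 and 4.24 in P-Ctrl, 7.40, 5.02 and 7.11 in P-KO, 6.34, 6.33 and 7.62 in R-WT, and 3.55, 3.42 and 1.67 in R-Het.

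The 8 genes covered a wide range of levels. Over the 12 mice, *Pmp22* had the highest mean (161 FPKM, range 138 to 184), followed by *S100b* (19.2 FPKM, range 13.0 to 24.4). *Mbp* (mean 4.50 FPKM) and *Ngfr* (mean 3.37 FPKM) came next and their ranges overlapped. *Sox10* had a mean of 1.35 FPKM (range 0.651 to 1.71). *Foxd3* (mean 0.542 FPKM), *Cdh19* (mean 0.434 FPKM) and *Erbb3* (mean 0.395 FPKM) were lowest, their ranges overlapped, and none reached 1 FPKM in any mouse. The 2 strongest members are genes that other tissues also use, and how restricted each member is to the Schwann lineage was not measured here. In fragments, the estimates behind these levels were 14 to 42 per mouse for *Sox10*, 2 to 19 for *Foxd3*, 7 to 25 for *Cdh19* and 11 to 43 for *Erbb3*, against 154 to 352 for *S100b* and 2308 to 3104 for *Pmp22*. The 5 members that reached 1 FPKM in 3 or more of the 12 mice (*Sox10*, *Ngfr*, *S100b*, *Pmp22*, *Mbp*) were tested. *Foxd3*, *Cdh19* and *Erbb3* are given as values only.

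**Figure D1:**
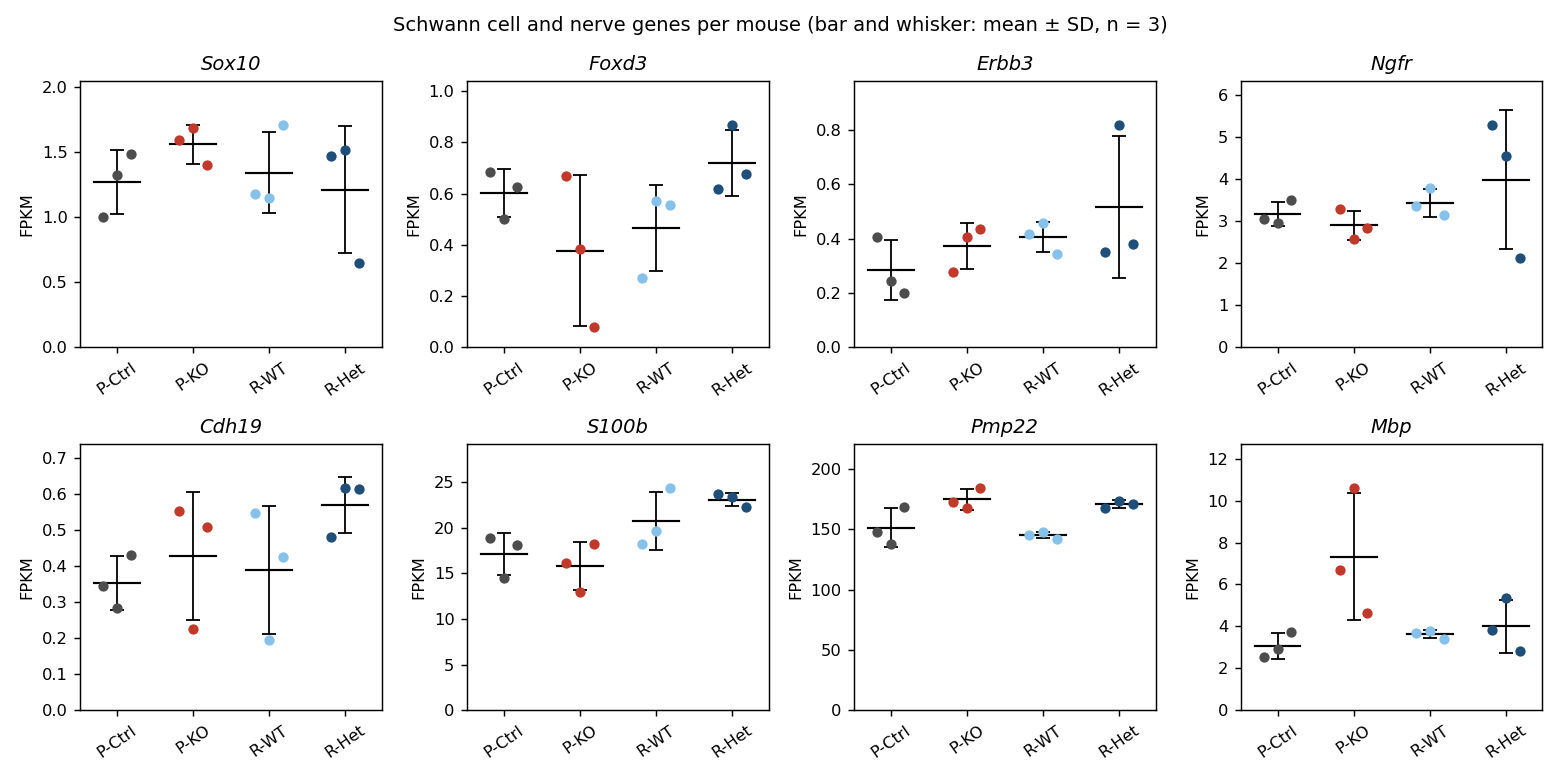
FPKM of the 8 genes (vertical axis, from 0) in the 12 mice, 3 per group; points are mice, the horizontal bar is the mean and the whisker the SD. All 3 P-KO mice lie above all 3 P-Ctrl mice for *Mbp*, and all 3 R-Het mice lie above all 3 R-WT mice for *Pmp22* and *Foxd3*.

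The position of 7 members in GRCm38 is chr15:79154913-79164490 for *Sox10*, chr4:99656299-99658671 for *Foxd3*, chr10:128567523-128589635 for *Erbb3*, chr11:95568818-95587698 for *Ngfr*, chr1:110888002-110977601 for *Cdh19*, chr10:76253836-76261319 for *S100b* and chr11:63128982-63159547 for *Pmp22*. *Pmp22*, the most abundant member, is known for alternative first exons, and RefSeq (GRCm38.p6) lists 4 upstream windows of 250 bases for it, the first and second 2.5 kb apart. The first and second windows are shown because they precede alternative starts of the same gene and differ in sequence. Both are given 5′ to 3′ on the plus strand, with the GC box GGGCGG or its reverse complement in capitals.

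Pmp22 window chr11:63128732-63128981: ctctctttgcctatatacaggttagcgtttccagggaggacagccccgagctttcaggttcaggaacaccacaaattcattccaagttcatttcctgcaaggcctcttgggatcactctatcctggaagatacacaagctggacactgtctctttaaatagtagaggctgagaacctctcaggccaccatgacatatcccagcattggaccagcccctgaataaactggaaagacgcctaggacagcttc

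Pmp22 window chr11:63131207-63131456: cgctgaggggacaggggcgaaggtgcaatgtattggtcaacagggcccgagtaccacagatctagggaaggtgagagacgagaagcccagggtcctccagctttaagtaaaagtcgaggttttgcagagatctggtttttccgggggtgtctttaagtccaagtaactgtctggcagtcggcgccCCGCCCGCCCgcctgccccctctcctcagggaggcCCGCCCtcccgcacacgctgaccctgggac

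The second window, which lies just upstream of the start that GENCODE M21 gives for the 1 *Pmp22* transcript in the files, holds 3 GC boxes, which run into each other at one place, and the first holds 0. Among the 7 windows listed for the members (*Foxd3*, *S100b*, *Ngfr* and 4 of *Pmp22*), 3 hold a GC box, against 32.7% of all 32851 windows. The SOX core letters ACAAAG (16.5% of all windows) and AACAAT (9.4%) and the EGR letters GCGTGGGCG (0.5%) and GCGGGGGCG (2.6%) were in 0 of the 7, searched on both strands.

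The first question was whether nerve genes differ between Med23-deleted and control calvaria. *Mbp* was the member that differed most, at 7.32 ± 3.03 FPKM in P-KO and 3.06 ± 0.598 FPKM in P-Ctrl (SD, n = 3 each), a ratio of 2.39. The other 4 tested members differed by at most 0.21 on the log2 scale. None of the 5 passed the threshold of adjusted p under 0.05, where 1.01% of the 13059 tested genes were higher and 0.559% lower in P-KO (limma, Benjamini-Hochberg adjustment over all tested genes). At an unadjusted limma p under 0.05, 1 of the 5 passed, against 21.3% of all tested genes. The median log2 fold change of the 5 was 0.18, beside 0.06 over all tested genes.

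*Mbp*, which encodes the protein that holds the inner faces of the myelin membrane together, was at 2.53, 2.94 and 3.71 FPKM in the P-Ctrl mice and at 6.71, 10.6 and 4.64 FPKM in the P-KO mice. All 3 P-KO mice lay above all 3 P-Ctrl mice, an order seen in 19.6% of all tested genes, and P-KO 2 was the highest. The log2 fold change of *Mbp* was 0.98 (SE 0.25, limma adjusted p = 0.0986), and the exact permutation p of 0.1 is the smallest that 3 against 3 mice can give. With all 12 mice in 1 limma fit, where 4.04% of all tested genes were called higher, the adjusted p of *Mbp* was 0.0404, so the call depends on how the spread is estimated. Without both female P-Ctrl mice, the log2 fold change was 1.17 (limma adjusted p = 0.272, the remaining control assumed to vary like the P-KO mice).

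*Mbp* has a pair of distant promoters, and the transcripts of the files separate by their start. There are 2 transcripts that begin at the upstream start and 6 that begin 79.3 to 79.4 kb further downstream. The downstream transcripts encode the classic myelin proteins, and the upstream ones encode the golli proteins, which are also made outside myelin. The split was made after the values of *Mbp* were seen, and it rests on how the authors' program divided fragments between transcripts that share exons.

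The downstream transcripts summed to 0.716, 1.66 and 2.04 FPKM in P-Ctrl and to 5.41, 8.57 and 3.38 FPKM in P-KO. The upstream transcripts summed to 1.82, 1.28 and 1.67 FPKM in P-Ctrl and to 1.31, 2.03 and 1.26 FPKM in P-KO. The groups did not overlap for the downstream transcripts and overlapped for the upstream ones. The log2 fold change was 1.43 (SE 0.32, 95% interval 0.68 to 2.17, limma adjusted p = 0.0743) downstream and -0.04 (SE 0.17, 95% interval -0.43 to 0.35, limma adjusted p = 0.922) upstream. The downstream transcripts had an adjusted p of 0.021 with all 12 mice in 1 limma fit.

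**Figure D2:**
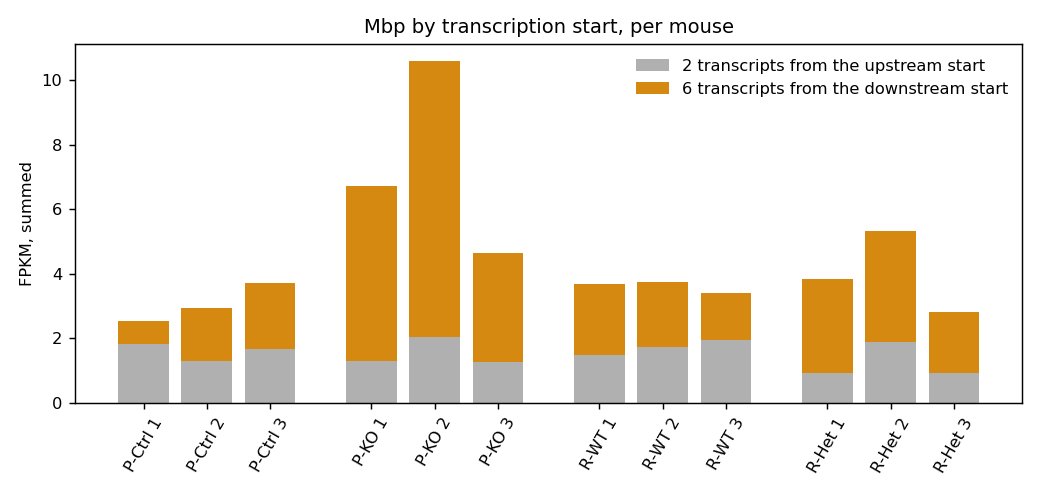
Summed FPKM of *Mbp* transcripts (vertical axis, from 0) in each of the 12 mice, stacked by transcription start: grey for the 2 upstream transcripts and orange for the 6 downstream ones. The orange part reaches 3.38 to 8.57 FPKM in P-KO and 0.716 to 3.45 FPKM in the other 9 mice, while the grey part stays between 0.915 and 2.03 FPKM.

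*Sox10*, the factor that marks the whole Schwann lineage, was at 1.00, 1.33 and 1.49 FPKM in P-Ctrl and at 1.60, 1.69 and 1.40 FPKM in P-KO. The groups overlapped, and the log2 fold change of *Sox10* was 0.18 (95% interval -0.15 to 0.51, limma adjusted p = 0.503). The 95% interval of *Mbp*, 0.39 to 1.58, overlapped that of *Sox10*, and the 2 genes were not tested against each other. *Pmp22* was at 148, 138 and 169 FPKM in P-Ctrl and at 173, 167 and 184 FPKM in P-KO, with a log2 fold change of 0.21 (95% interval -0.02 to 0.44, limma adjusted p = 0.267). Only P-Ctrl 3 overlapped the P-KO mice.

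*S100b*, a calcium-binding protein of Schwann cells and chondrocytes, ranged from 14.5 to 18.8 FPKM in P-Ctrl and from 13.0 to 18.2 FPKM in P-KO (log2 fold change -0.12, SE 0.15, limma adjusted p = 0.686). *Ngfr*, the p75 receptor of neurotrophins, ranged from 2.96 to 3.49 FPKM in P-Ctrl and from 2.58 to 3.28 FPKM in P-KO (log2 fold change -0.10, SE 0.12, limma adjusted p = 0.679). Both genes overlapped between the groups.

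Among the members that were too low to test, *Foxd3* was at 0.686, 0.501 and 0.625 FPKM in P-Ctrl and at 0.669, 0.384 and 0.0813 FPKM in P-KO. *Erbb3*, the neuregulin receptor, ranged from 0.201 to 0.408 FPKM in P-Ctrl and from 0.279 to 0.436 FPKM in P-KO. *Cdh19*, a cadherin of the Schwann lineage, ranged from 0.284 to 0.430 FPKM in P-Ctrl and from 0.225 to 0.551 FPKM in P-KO. All 3 overlapped between the groups, with exact two-sided permutation p of 0.3, 0.3 and 0.6.

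Other genes of the pathway give the setting of the *Mbp* values. Of 12 peripheral myelin genes, 3 passed the filter, all 3 had a positive log2 fold change in P-KO (median 0.45), as did 61.3% of all tested genes, and 0 passed the threshold. Of these 3, *Prx* and *Mal* had an unadjusted limma p under 0.05, against 21.3% of all tested genes, and had all 3 P-KO mice above all 3 P-Ctrl mice, against 19.6%. *Cnp*, an enzyme of myelin cytoplasm and the most abundant of the list, was at 12.3 ± 1.17 FPKM in P-Ctrl and 12.7 ± 1.02 FPKM in P-KO (SD, n = 3 each; limma adjusted p = 0.828).

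Of the 3, *Prx* and *Mal* passed the threshold with all 12 mice in 1 limma fit, at adjusted p of 0.0357 and 0.0468. That fit called 4.04% of all tested genes higher in P-KO, against 1.01% in the 6-mouse fit. The log2 fold change of *Prx*, which encodes periaxin of the Schwann cell membrane, was 0.45 (limma adjusted p = 0.0846 in the 6-mouse fit). That of *Mal*, a lipid raft protein of myelin, was also 0.45 (limma adjusted p = 0.128 in the 6-mouse fit).

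*Egr2*, the zinc finger factor that drives myelin genes, went the other way. It was at 1.79, 2.16 and 1.53 FPKM in P-Ctrl and at 0.681, 0.468 and 0.603 FPKM in P-KO, so that all 3 P-KO mice lay below all 3 P-Ctrl mice, as in 7.68% of all tested genes. *Egr2* fell by 0.83 on the log2 scale (SE 0.15, limma adjusted p = 0.0479) and was the only 1 of 3 tested Schwann lineage transcription factors to pass. The call of *Egr2* was lost on leaving out each of the 6 mice in turn (limma adjusted p 0.0936 to 0.141), with log2 fold changes of -0.91 to -0.75. Few genes were called in those fits, from 0 higher and 0 lower without P-KO 1 to 22 higher and 13 lower without P-Ctrl 1. Without both female controls, the log2 fold change of *Egr2* was -0.82. Over all 14 alternatives its limma adjusted p was between 0.0312 and 0.21. *Egr2* is also an immediate early gene in many cell types. The other tested factors were *Zeb2* (log2 fold change 0.10, limma adjusted p = 0.664) and *Nfatc4* (-0.13, limma adjusted p = 0.551).

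*Ntrk2*, the receptor of brain-derived neurotrophic factor, was the 1 of 7 tested neurotrophin and receptor genes that passed the threshold in P-KO. Of the 7, 5 had a positive log2 fold change, beside 61.3% of all tested genes. An unadjusted limma p under 0.05 was seen for 4, against 21.3% of all tested genes. All P-KO mice lay above all P-Ctrl mice for 3, against 19.6% of all tested genes. *Ntrk2* was at 9.35, 10.1 and 9.25 FPKM in P-Ctrl and at 17.6, 18.8 and 20.9 FPKM in P-KO (log2 fold change 0.93, SE 0.09, limma adjusted p = 0.0211). Leaving out single mice, the log2 fold change of *Ntrk2* was between 0.86 and 0.98. Its limma adjusted p was then between 0.0445 and 0.0922 and held under the threshold only without P-Ctrl 1. Over all 14 alternatives it was between 0.00659 and 0.14, the highest without both female controls, where the log2 fold change was 0.95. *Ntrk3*, the receptor of neurotrophin-3, and *Sort1*, a co-receptor of proneurotrophins, had log2 fold changes of 0.58 (limma adjusted p = 0.0723) and 0.57 (limma adjusted p = 0.0933), with all 3 P-KO mice above all 3 P-Ctrl mice. *Gfra1*, a co-receptor of glial cell line-derived neurotrophic factor, differed by -0.66 on the log2 scale (limma adjusted p = 0.213).

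Of 10 genes of non-myelinating and precursor Schwann cells, 7 were tested and 0 passed. All 7 had a positive log2 fold change in P-KO (median 0.66), beside 61.3% of all tested genes. The median is the value of *Fabp7*. The largest value was that of *Plekhb1* (0.99, SE 0.62, limma adjusted p = 0.397), at 23.6, 5.74 and 2.82 FPKM in P-KO, with the groups overlapping. Both *Fabp7* and *Plekhb1* were highest in P-KO 1. *Gap43*, a growth-associated protein of axons and immature Schwann cells, went from 21.1 ± 3.18 to 35.3 ± 5.28 FPKM (log2 fold change 0.71, limma adjusted p = 0.061), and *Fabp7*, a fatty acid binding protein of Schwann precursors, differed by 0.66 on the log2 scale (limma adjusted p = 0.23). *Fabp7* was at 59.8, 33.2 and 27.2 FPKM in P-KO, highest in P-KO 1, a mouse that also had high *Neurod1* and *Snap25*, and without P-KO 1 it differed by 0.33 (limma adjusted p = 0.414). Of the neuregulin and ErbB genes, 4 of 6 were tested and 0 passed; *Bace1*, a protease that cleaves neuregulin, differed by 0.14 on the log2 scale (limma adjusted p = 0.407) and *Adam17* of -0.19 (limma adjusted p = 0.417). Of the axonal genes, 5 of 12 were tested and 0 passed. A positive log2 fold change was seen in 61.3% of all tested genes and in 4 of these 5 axonal genes (median 0.51). *Snap25* is among the 4 (log2 fold change 1.16, SE 0.69). It passed the filter only through P-KO 1, R-WT 1 and R-Het 1 (8.07, 3.65 and 1.67 FPKM), so its sign rests on P-KO 1 and is no support for a rise. The 2 most abundant were *Uchl1* at 0.11 (limma adjusted p = 0.663) and *Stmn2* at -0.22 (limma adjusted p = 0.368). *Tubb3*, a neuronal tubulin, was at 0.51 (limma adjusted p = 0.12) and *Calca*, a neuropeptide gene of sensory axons, at 1.05 (limma adjusted p = 0.177). Both had all 3 P-KO mice above all 3 P-Ctrl mice, an order seen in 19.6% of all tested genes.

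**Figure D3:**
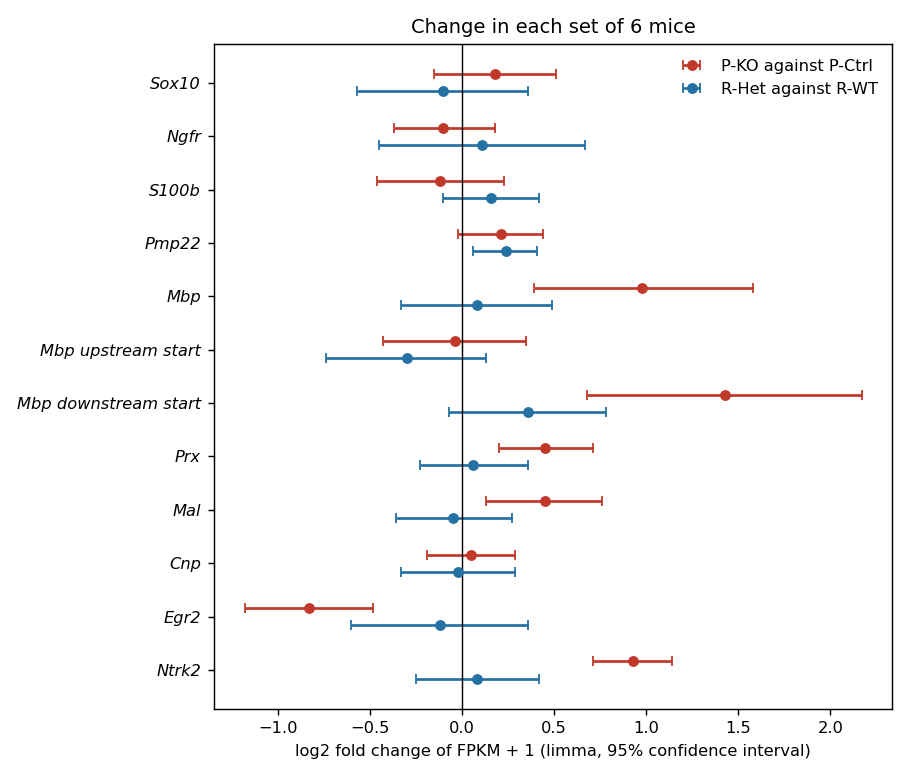
Log2 fold change of FPKM + 1 (horizontal axis, limma estimate with its 95% confidence interval) for the 5 tested members, *Mbp* by start, the 3 tested myelin genes, *Egr2* and *Ntrk2*, in P-KO against P-Ctrl (red) and R-Het against R-WT (blue), 3 mice per group. In P-KO, the downstream *Mbp* transcripts (1.43) lie farthest to the right and *Egr2* (-0.83) farthest to the left, while the blue intervals include 0 except that of *Pmp22*.

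Markers of other cells that could be dissected with calvaria were read beside these results. Oligodendrocytes of the brain also express *Mbp*. *Opalin*, an oligodendrocyte marker, was listed at 0 in all 12 mice, *Mog* reached at most 0.195 FPKM, *Mobp* at most 0.0366 FPKM, and the 6 oligodendrocyte markers summed to 0.604 to 1.38 FPKM in P-Ctrl and 0.348 to 1.08 FPKM in P-KO. The 2 highest, *Sox8* and *Olig1*, were below 1 FPKM in every mouse. The 8 brain neuron and astrocyte markers summed to 4.74 to 6.19 FPKM in P-Ctrl and 5.01 to 11.0 FPKM in P-KO. These markers summed to 5.36 to 7.91 FPKM in R-WT and 6.60 to 6.95 FPKM in R-Het. *Slc1a3* was the highest of the list in every mouse (4.12 to 5.92 FPKM). The upper end was P-KO 1, which had *Neurod1* at 3.65 FPKM and *Snap25*, a synaptic gene of the axonal list, at 8.07 FPKM. In P-KO 2, the mouse with the highest *Mbp*, *Neurod1* and *Snap25* were at 0.245 and 0.523 FPKM. They were at 2.23 and 3.65 FPKM in R-WT 1 and at 0.306 and 1.67 FPKM in R-Het 1. The part of other cells in the *Mbp* values was not tested.

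The melanocyte markers, of another neural crest lineage that uses *Sox10*, summed to 5.40 to 7.70 FPKM in P-Ctrl and 5.08 to 8.35 FPKM in P-KO. Most of the sum came from *Mitf* and *Kit*, with means of 3.99 and 1.27 FPKM over all mice. *Tyr*, *Dct*, *Tyrp1*, *Pmel* and *Mlana* had means of 0.378, 0.047, 0.052, 0.537 and 0.382 FPKM. The share of melanocytes was not tested. Of 8 cartilage markers, 4 had positive log2 fold changes, beside 61.3% of all tested genes, and 4 had negative ones. *Col2a1* was the 1 of the 8 that passed, lower in P-KO (-0.86, limma adjusted p = 0.0404). The muscle genes summed to 26.3 to 1550 FPKM in P-Ctrl and 665 to 4650 FPKM in P-KO, with 0 of 10 past the threshold (median log2 fold change 2.99). With the muscle content as a covariate, the log2 fold change of *Mbp* was 1.25 (limma adjusted p = 0.202).

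The same genes were compared between Runx2+/- and WT littermates. *Pmp22* was the tested member whose groups did not overlap, at 145, 147 and 142 FPKM in R-WT and at 168, 174 and 171 FPKM in R-Het. All 3 R-Het mice lay above all 3 R-WT mice, an order seen in 10.7% of all tested genes, and the replicates were close. The ratio of the means of *Pmp22* was 1.18, and the log2 fold change was 0.24 (SE 0.07, 95% interval 0.06 to 0.41, limma adjusted p = 0.178). None of the 5 tested members passed the threshold, where 0.398% of tested genes were higher and 1.49% lower in R-Het. At an unadjusted limma p under 0.05, 1 of the 5 passed, against 15.4% of all tested genes, and the median log2 fold change of the 5 was 0.11, beside 0.02 over all tested genes.

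*Mbp* was at 3.69, 3.76 and 3.41 FPKM in R-WT and at 3.83, 5.34 and 2.82 FPKM in R-Het, and the groups overlapped (log2 fold change 0.08, SE 0.18, limma adjusted p = 0.878). Its downstream transcripts summed to 2.22, 2.02 and 1.47 FPKM in R-WT and to 2.89, 3.45 and 1.90 FPKM in R-Het (log2 fold change 0.36, limma adjusted p = 0.417), and its upstream transcripts differed by -0.30 on the log2 scale (limma adjusted p = 0.509).

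*Sox10* was at 1.18, 1.15 and 1.71 FPKM in R-WT and at 1.47, 1.52 and 0.651 FPKM in R-Het (log2 fold change -0.10, 95% interval -0.57 to 0.36, limma adjusted p = 0.867). R-Het 3 had the lowest *Sox10* of all 12 mice and also the lowest *Ngfr* of all, 2.13 FPKM, against 5.27 and 4.55 FPKM in the other R-Het mice. Without R-Het 3, the log2 fold change was 0.10 for *Sox10* (limma adjusted p = 0.796). For *Ngfr* it was 0.11 with all mice (SE 0.24, limma adjusted p = 0.876) and 0.42 without R-Het 3 (SE 0.12, limma adjusted p = 0.152).

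*S100b* was at 18.2, 19.7 and 24.4 FPKM in R-WT and at 23.7, 23.3 and 22.3 FPKM in R-Het (log2 fold change 0.16, SE 0.11, limma adjusted p = 0.565). *Foxd3* was at 0.271, 0.570 and 0.557 FPKM in R-WT and at 0.618, 0.867 and 0.675 FPKM in R-Het, with no overlap (exact permutation p = 0.1, the smallest possible), on at most 19 fragments per mouse. *Erbb3* ranged from 0.345 to 0.457 FPKM in R-WT and from 0.352 to 0.817 FPKM in R-Het, and *Cdh19* from 0.194 to 0.545 FPKM and from 0.479 to 0.615 FPKM, both with overlap.

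Of the other nerve lists, 0 genes passed the threshold in R-Het. The median log2 fold change was -0.02 for the 3 tested myelin genes, of which 1 was positive and 2 negative, beside 56.1% positive among all tested genes. It was 0.23 for the 7 tested genes of non-myelinating and precursor Schwann cells. On the log2 scale, *Egr2* differed by -0.12 (limma adjusted p = 0.841) and *Ntrk2* by 0.08 (limma adjusted p = 0.842). Of the 7 tested neurotrophin and receptor genes, 3 had an unadjusted limma p under 0.05, against 15.4% of all tested genes. *Ntrk3* differed by 0.41 (limma adjusted p = 0.105), *Gfra1* by -0.46 (limma adjusted p = 0.132) and *Sort1* by 0.22 (limma adjusted p = 0.598), each in the same direction as in P-KO. The muscle genes were lower in all 10 cases, 9 of them past the threshold (median log2 fold change -4.76), and *Mylpf*, a myosin light chain, went from a mean of 1030 to 39.8 FPKM (limma adjusted p = 0.02). The oligodendrocyte markers summed to 1.04 to 1.11 FPKM in R-WT and 0.855 to 1.11 FPKM in R-Het.

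Whether the change differed between the Med23 and Runx2 sets was tested in 1 limma fit of all 12 mice. None of the 5 members passed, where 0.153% of all tested genes did, and 1 of the 5 had an unadjusted p under 0.05, against 15.3% of all tested genes. *Mbp* had the largest difference of the members, 0.90 on the log2 scale (95% interval 0.16 to 1.64, limma unadjusted p = 0.0213, adjusted p = 0.232), and the downstream *Mbp* transcripts gave 1.07 (limma adjusted p = 0.233). The difference was -0.03 for *Pmp22* (95% interval -0.27 to 0.22), 0.28 for *Sox10* (95% interval -0.27 to 0.82), -0.21 for *Ngfr* and -0.28 for *S100b*. For *Ntrk2* and *Egr2* it was 0.84 and -0.71, with limma adjusted p of 0.071 and 0.221. A change of *Mbp* in P-KO alone was therefore not shown.

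The last question was whether nerve genes follow the muscle that is dissected with the bone. For each mouse, the deviation from its group mean was taken, so that differences between groups do not enter. *S100b* deviated with muscle content in the 12 mice (Pearson r = 0.82, exact permutation p = 0.0046 over the 1296 arrangements within groups; Spearman rho = 0.83, exact permutation p = 0.0123). Over all 13059 tested genes, 6.46% had an exact p under 0.05, and the adjusted p of *S100b* was 0.392 for r and 0.527 for rho. Without the 2 mice farthest from the median muscle content, P-Ctrl 2 and R-Het 3, r of *S100b* was 0.80. Taken as levels of all 12 mice, r of *S100b* was -0.02 (permutation p = 0.949), and the R-Het mice had little muscle and high *S100b*. Taken as levels within the 6 mice of the Runx2 set, r of *S100b* was -0.29.

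None of the 5 tested members, *S100b* included, passed the threshold after adjustment. For deviations, r was 0.17 for *Sox10* (exact permutation p = 0.613; rho 0.15, p = 0.64), -0.23 for *Mbp* (p = 0.541; rho -0.39, p = 0.307), 0.40 for *Pmp22* (p = 0.597; rho 0.06, p = 0.91) and 0.42 for *Ngfr* (p = 0.11; rho 0.39, p = 0.212). Their adjusted p were between 0.886 and 0.978 for r. Without the same 2 mice, r was -0.17 for *Sox10*, -0.78 for *Mbp*, -0.19 for *Pmp22* and 0.05 for *Ngfr*, so the positive values of *Sox10*, *Pmp22* and *Ngfr* rested on these 2 mice. Of the 4 genes planned as a Schwann score (*Sox10*, *Foxd3*, *Erbb3*, *Cdh19*), 1 passed the filter, and the score is therefore *Sox10* itself.

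**Figure D4:**
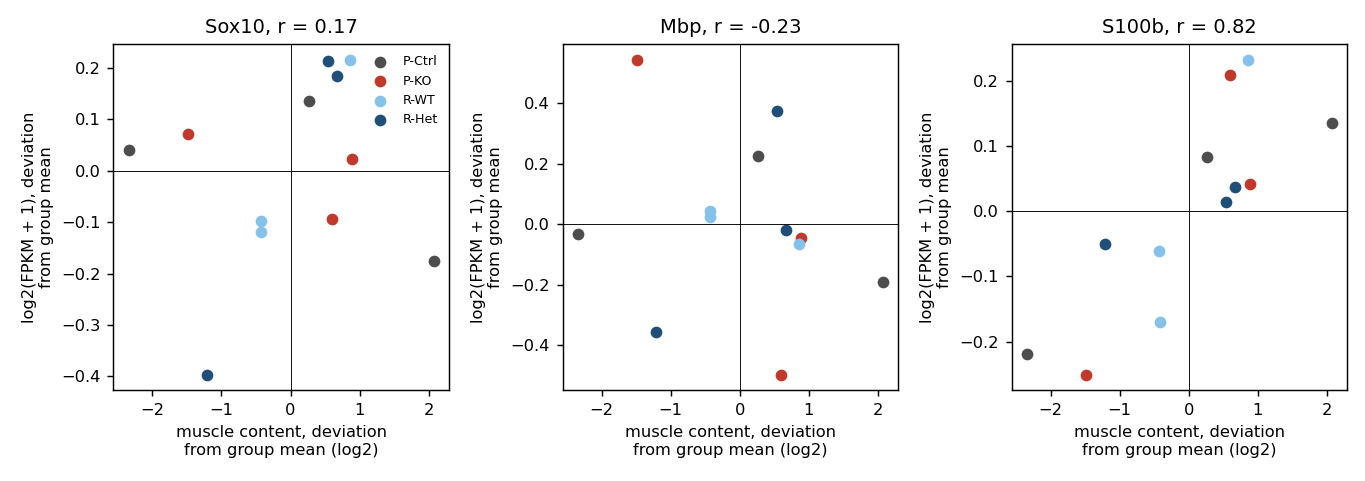
Deviation of log2(FPKM + 1) from the group mean (vertical axis) against the deviation of muscle content (horizontal axis, log2 scale) for *Sox10*, *Mbp* and *S100b* in 12 mice, coloured by group. The points of *S100b* rise with muscle (r = 0.82), and those of *Sox10* (r = 0.17) and *Mbp* (r = -0.23) scatter.

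Across the levels of the 12 mice, the correlation with *Sox10* was 0.61 for *Mbp*, 0.41 for *Ngfr*, 0.11 for *Pmp22* and -0.20 for *S100b*, as a description over libraries that share groups and scaling. For deviations from the group means it was 0.59 for *Mbp*, 0.70 for *Ngfr*, 0.00 for *Pmp22* and 0.15 for *S100b*. The exact permutation p was 0.0448 for *Mbp* (adjusted p = 0.659, rho 0.43) and 0.226 for *Ngfr* (adjusted p = 0.76, rho 0.29). For *S100b* it was 0.59 (adjusted p = 0.89), so none of these relations passed the threshold. The tested genes most like *Sox10* by level were *She* (r = 0.92), *Gucy1a1* (r = 0.89), *Txndc12* (r = 0.88), *Mien1* (r = 0.88) and *Chmp6* (r = 0.86), and by deviation from the group means *Bean1* (r = 0.96), *Srsf7* (r = 0.95), *Srsf3* (r = 0.95), *Rgs3* (r = 0.94) and *Dnajb2* (r = 0.93), each over 12 mice. They were picked for their high r from the 13059 tested genes, and no test of them is given here.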

How the data were processed

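Total RNA of 12 calvariae, 3 mice per group, was sequenced on the Illumina platform. The authors deposited FPKM per RefSeq transcript, 1 file per mouse. The submitters' processing notes name Bowtie 0.12.8 and mm10, and the program behind the FPKM is not given in the sources used here. That program divides fragments between the transcripts of a gene. The members and gene lists were chosen with earlier results of these data known. The 30411 transcripts were matched to symbols by the NCBI gene table (29831) or GENCODE M21 (184), 396 kept their identifier, and FPKM were summed per gene. The 13059 genes that reached 1 FPKM in 3 or more mice were tested on log2(FPKM + 1), which understates changes of low genes. Each mutant group was compared with its littermates in a limma 3.58.1 fit (R 4.3.3) with a mean-variance trend and no covariate. A gene was called at adjusted p under 0.05 (Benjamini-Hochberg over all tested genes). The labels name separate mice. Single values had exact two-sided permutation tests, and relations used Python 3.11.15 with numpy 2.4.6. Depth was estimated from the smallest values of single-transcript genes and covers counting error only. The fits were tested on simulated data. Besides the members, genes were named if they passed the threshold or were among the 2 highest of their list. *Mal*, *Ntrk3*, *Sort1*, *Plekhb1*, *Tubb3*, *Calca*, *Snap25*, *Mog*, *Mobp* and *Opalin* were named after their values were seen. Other pseudocounts, filters, scalings, covariates, blocks and mouse subsets were tried. Neither batches nor dates are given in the labels, so nothing was recomputed within batches. Some genes of the peripheral myelin list are not reported here.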

Additional observations from a re-analysis of the deposited data

How the results depend on the processing

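Few fragments limit *Sox10*, *Foxd3*, *Erbb3* and *Cdh19*, and 3 mice per group limit every comparison. With all 12 mice in 1 limma fit, 1 member and 2 peripheral myelin genes were called in P-KO, and 0 in each of the other alternatives. The median log2 fold change of the members in R-Het was 0.71 with muscle content as a covariate, whose values do not overlap between R-Het and R-WT, and that covariate turned *Sox10* (1.07), *Mal* (0.20) and *Egr2* (0.26) positive there; the cause was not tested. Leaving out single mice turned the sign of small changes, with ranges of -0.21 to 0.10 for *Sox10*, -0.11 to 0.26 for *Mbp*, -0.08 to 0.42 for *Ngfr*, -0.01 to 0.12 for *Prx* and -0.01 to 0.24 for *Ntrk2* in R-Het, -0.23 to 0.01 for *S100b* and -0.17 to 0.04 for upstream *Mbp* in P-KO, and -0.09 to 0.05 for the *Pmp22* difference between sets.

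Relations to muscle content changed sign more often. The pooled values and those within a set were taken from levels, so differences between groups enter them. All other values were taken from deviations from the group means. In the Runx2 set, R-Het and R-WT overlapped neither in muscle content nor in *Pmp22*. For *Mbp*, r was 0.24 for pooled levels, 0.34 in the Med23 set, 0.02 in the Runx2 set and -0.47 to 0.14 without single mice. For *Pmp22*, r was -0.04 pooled, -0.03 with the same FPKM sum in each mouse, -0.19 without the 2 farthest mice, -0.95 in the Runx2 set and -0.17 to 0.62 without single mice. For *S100b*, r was -0.02 pooled, -0.29 in the Runx2 set and 0.75 to 0.85 without single mice. For the Schwann score, r was -0.17 without the 2 farthest mice and -0.21 to 0.54 without single mice, the lowest without R-Het 3.

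Over all tested genes, 132 were called higher and 73 lower in P-KO. These counts were 41 and 65 with the same FPKM sum in each mouse, 0 and 1 with the muscle covariate, 527 and 190 with all 12 mice in 1 fit, 1 and 0 without a filter and 0 and 0 without both female controls, an alternative chosen after seeing the data, as were the filter of 0.1 FPKM and the *Mbp* split. In R-Het, 52 were called higher and 195 lower, and 21 and 69 with the replicate number as a block. In P-KO the replicate block gave 181 and 92; it called *Gap43* (limma adjusted p = 0.0315) and lost *Egr2* (0.0729). The deviations of same-numbered mice correlated at 0.18, 0.259 and 0.053 in the Med23 set and at 0.005, -0.047 and -0.084 in the Runx2 set. The numbers were not taken to pair the mice. The values of the Med23 set were all positive and were not compared with those of differently numbered mice, so pairing there stays undecided. With the replicate block, the log2 fold change of *Mbp* in P-KO was 0.98 (limma adjusted p = 0.106), the median of the members was 0.18 in P-KO and 0 members were called.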
